A study of Drosophila melanogaster with 11 samples.

Results

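The baseline transcriptome of the young wild-type antenna was described from 3 of the 11 samples of the study, namely the 3 libraries made from w1118 flies at 3 d after eclosion. They were chosen by their labels alone, and no comparison with the other 8 samples was made. The material was the third antennal segment of Drosophila melanogaster, which was cut off and washed into lysis reagent before RNA extraction. The wider study paired this strain with flies lacking the microRNA gene mir-284 and sampled both genotypes young and old; those libraries were not used here. The flies carry the w1118 allele and no other allele is named for them. Their sex and the number of animals pooled in a library are not given in the sources used here. The design text calls the replicates biological. Values of the 3 libraries are given throughout in the order of replicates 1, 2 and 3.

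The third segment carries the olfactory sensilla, porous hairs in which the dendrites of olfactory neurons lie in a fluid made by support cells. Support cells fill that fluid with odorant binding proteins and enzymes. Each neuron usually makes 1 tuning receptor, which sets the odours it detects, together with a co-receptor that takes the receptor to the ciliated dendrite and forms the channel with it. Receptors of 3 families serve the antenna: odorant receptors with Orco in basiconic, trichoid and intermediate sensilla, ionotropic receptors with Ir8a, Ir25a or Ir76b mostly in coeloconic sensilla and the sacculus, and a pair of gustatory receptors that detects carbon dioxide.

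Polyadenylated RNA was sequenced, and the libraries held 44394382, 38357143 and 34933682 fragments assigned to genes. A level is given as TPM, the count of a gene divided by its length and scaled to the same total in every library, so that genes of different length can be compared; CPM is the count scaled to the library total, with no length correction. A gene was counted as detected at 1 CPM or more in every library, and 9176 of the 16727 genes in the table (54.9%) were. Another 2300 genes had 0 counts in all 3 libraries; a count of 0 allows up to 3 counts, which is 0.0676, 0.0782 and 0.0859 CPM in the 3 libraries and covers counting error only. Transcripts were unevenly divided: 163 genes at 1000 TPM or more held 45.5% of all TPM, and 1259 genes between 100 and 1000 TPM held another 32.3%.

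Replicate 3 stood apart from the other 2 libraries. Over the 9176 detected genes, Pearson's r of log2(TPM + 1) across genes was 0.995 between replicates 1 and 2, against 0.948 between replicates 1 and 3 and 0.945 between replicates 2 and 3; genes are not independent replicates, so these are descriptions. Replicates 1 and 2 were within 1.5-fold of each other for 97.8% of detected genes, and replicate 3 was within 1.5-fold of replicate 1 for 76.5% and of replicate 2 for 75.1%. The counts of replicates 1 and 2 differed by more than counting error alone. Their chi-square was 13.7 per gene, taken over 11449 genes and not only the detected ones. It was 307 per gene over 12211 genes between replicates 1 and 3, and 294 over 12199 genes between replicates 2 and 3. The median detected gene was at -0.10 in replicate 3 on a log2 scale of its TPM over the mean of replicates 1 and 2, and 4956 of 9176 detected genes were lowest in replicate 3. Levels without replicate 3 are those of the first 2 values in each series of 3.

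**Figure D1:**
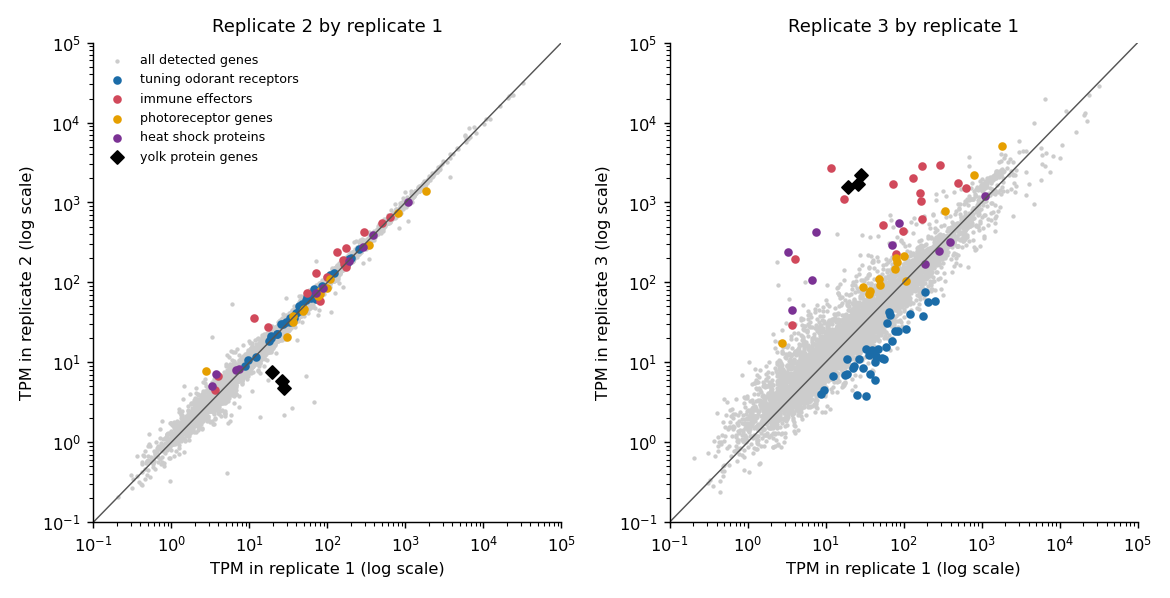
Level of every detected gene in replicate 1 (x axis, TPM, log scale) against replicate 2 (left) and replicate 3 (right) of w1118 antennae at 3 d; each point is a gene, coloured by group, and the line marks equal levels. Replicate 2 lies along the line except for a few genes such as the yolk protein genes, while in replicate 3 the tuning odorant receptors lie below the line and most immune effectors, photoreceptor genes and yolk protein genes above it.

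The labelled tissue was checked against its markers. Of the 38 tuning odorant receptors of adult antennal sensilla, 36 were at 1 TPM or more in every library and 35 were detected at 1 CPM. The 7 receptors of the maxillary palp, the other olfactory organ of the head, summed to 5.37, 6.36 and 2.95 TPM, and Or46a, Or59c and Or85d had 0 counts. The 12 receptors assigned to the larva summed to 4.13, 5.50 and 5.12 TPM, with 6 at 0 counts. The highest of the palp receptors was Or71a at 2.36, 2.81 and 2.05 TPM, and the highest larval one was Or1a at 2.41, 3.01 and 1.54 TPM, so that by mean level both stood above Or49a and Or33b and below the other antennal receptors. In bulk tissue, fewer cells of a type and less RNA per cell cannot be told apart, and this holds for every level below.

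The list of the most abundant transcripts was led by genes for small secreted proteins. Odorant binding proteins, small secreted carriers of odorants, made up 4 of the 10 and 7 of the 30 genes with the highest mean TPM. The 10 highest genes together took 17.8%, 17.4% and 14.4% of TPM. The 30 highest genes by TPM were short, with a median length of 936 bases. The median was 1513 for all genes in the table, 2158.5 for detected genes and 1787 for the 30 highest by CPM. Both sets of 30 shared 18 genes. Ribosomal protein genes filled 42 of the 100 highest places.

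Obp19d, an odorant binding protein gene on chromosome X, 20419613 to 20420979, plus strand (dm6), was the highest gene of the table at 32192, 31035 and 28576 TPM. It was also the highest by CPM, at 18663, 17679 and 17759.5 CPM, and its 3 libraries lay close together. Drsl5, a member of the drosomycin-like peptide family, was next at 23894, 22322 and 22217 TPM and equally even across the libraries. The neighbouring genes Obp83a and Obp83b, first described as olfactory-specific proteins of trichoid sensilla, stood at 20528, 20329 and 12545 TPM and at 21319.5, 21786 and 13089.6 TPM. These 2 genes lie 931 bases apart on chromosome 3R, and Obp83a over Obp83b was 0.963, 0.933 and 0.958 in the 3 libraries, while the level of each was lower in replicate 3 than in the others. They are similar in sequence, so fragments that match both may be left out, and their counts are uncertain. The antennal protein gene a10, which encodes a small secreted chemosensory protein, was at 22669, 21912 and 10441 TPM, with replicate 3 far below replicates 1 and 2.

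**Figure D2:**
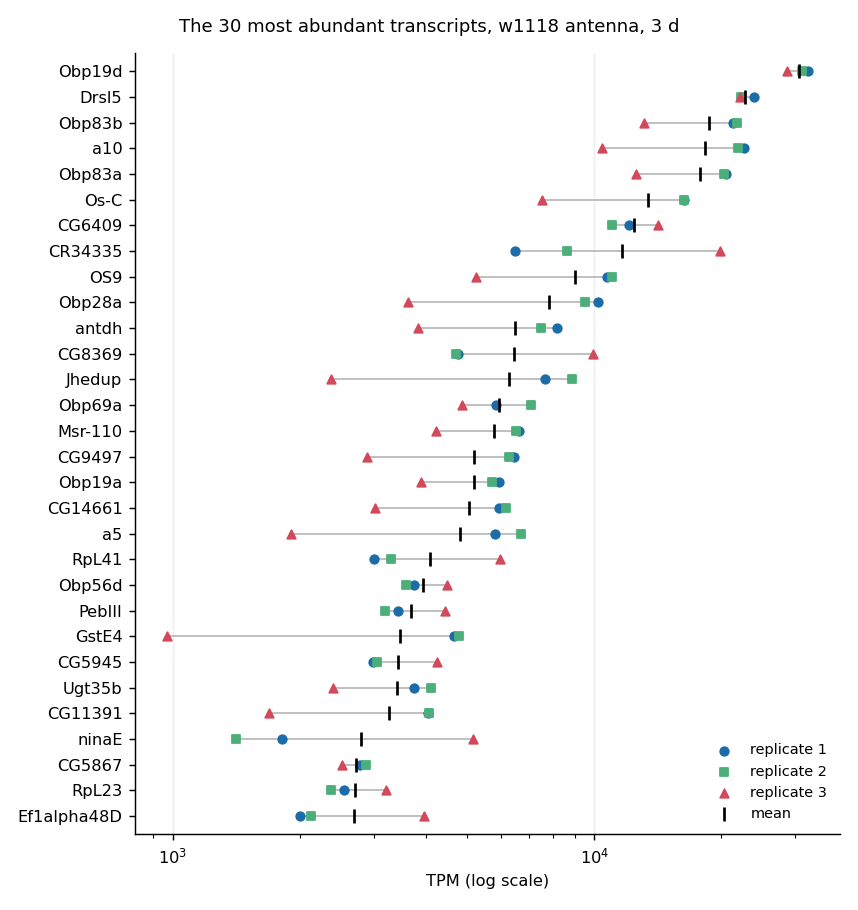
The 30 genes with the highest mean TPM in w1118 antennae at 3 d (x axis, TPM, log scale), with a symbol for each replicate and a bar for the mean. Obp19d leads in all 3 libraries, Drsl5, CG6409 and CG5867 have narrow ranges, and GstE4, Jhedup, a5 and CR34335 have wide ones set by replicate 3.

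Below these came genes of known and unknown function. Os-C, named for its olfactory-specific expression, had 16360.3, 16345 and 7528 TPM, and OS9 had 10719.9, 11012 and 5246 TPM; both overlap another gene on the opposite strand, and because strand was ignored in the counting, fragments in shared bases cannot be assigned to 1 of the genes, which makes the counts of such genes uncertain. The uncharacterised gene CG6409 reached 12075, 11040.5 and 14154 TPM, and CG8369 reached 4762, 4700.1 and 9920.3 TPM, highest in replicate 3 in both cases. Obp28a, another odorant binding protein, was at 10222, 9530.0 and 3615 TPM. The antennal dehydrogenase gene antdh was at 8137, 7474 and 3812 TPM, and Msr-110 and CG9497 were at 6641, 6534 and 4221 TPM and 6439, 6274 and 2885 TPM. These last 4 genes were all lowest in replicate 3. PebIII, a gene of the chemosensory protein family that was named from the ejaculatory bulb, was at 3417, 3186 and 4417 TPM.

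Ranking by CPM brought in long transcripts. Atpalpha, the catalytic subunit of the sodium pump, had 4707, 4765 and 3664 CPM from a gene model of 6680 bases, which is 1338, 1379 and 972 TPM once length is taken into account. The RNA-binding protein gene cpo had 3435, 3739.6 and 2690.1 CPM and only 564, 625 and 412 TPM. Other genes in the CPM list but not in the TPM list were the translation and energy genes pAbp, EF2, Argk (arginine kinase) and sesB (the mitochondrial ADP/ATP carrier), with 2903, 2882 and 3719 CPM, 2996, 2964 and 3459.5 CPM, 2724, 2515 and 2716 CPM and 2480.1, 2325 and 2817 CPM. Ef1alpha48D, a translation elongation factor, was in both lists and had 2602, 2714 and 5480.3 CPM, with replicate 3 at the top.

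The odorant binding protein family as a whole summed to 105661, 105249 and 76055 TPM, or 9.57% ± 1.70 (SD, n = 3) of all TPM, and 10.5% without replicate 3. Of 51 members, 26 were detected and 7 had 0 counts in all libraries, so a few genes carried the sum and the median member was at 7.50 TPM. After Obp19d, Obp83a, Obp83b and Obp28a came Obp69a at 5854, 7082 and 4852 TPM, Obp19a at 5949, 5711 and 3884 TPM and Obp56d at 3743, 3568 and 4473 TPM. The gene lush, which encodes the binding protein for the pheromone cis-vaccenyl acetate in trichoid sensilla, was at 2614, 2782 and 1755 TPM. Obp59a, known for its part in sensing humidity, was at 1490.4, 1508 and 552 TPM, and Obp57c was at 916, 997 and 1179 TPM. Obp69a and Obp59a overlap a gene on the opposite strand.

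The members did not move together across libraries. Of the 26 detected odorant binding protein genes, 11 (42.3%) were lowest and 14 (53.8%) highest in replicate 3. Of all detected genes, 54.0% were lowest and 35.8% highest there. Obp28a, Obp59a and Obp84a were lowest there, the last with 168, 198 and 83.9 TPM. Obp99c, Obp57b, Obp57a and Obp99b were highest there, with 173, 157 and 577 TPM for Obp99c and 41.8, 49.3 and 111 TPM for Obp99b. At the low end, Obp56g, Obp56h and Obp22a had 137, 35 and 13 counts over the 3 libraries, nearly all of them in replicate 3 for Obp56h, whose levels were 0.0721, 0 and 2.91 TPM. Members with 0 counts were Obp46a, Obp47b, Obp50b, Obp50c, Obp50d, Obp56b and Obp57d, and for each of them 3 counts over the 3 libraries would be 0.0255 CPM.

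Genes for secreted proteins and odour-degrading enzymes formed the next group. They summed to 60404, 61530.5 and 27335 TPM, with 12 of 14 members detected. The list includes the secreted proteins a10 and a5 beside enzymes. Its cytochrome P450, glutathione S-transferase and glycosyltransferase members are also counted in the sums of those families below. All 12 detected members were lowest in replicate 3, where 54.0% of all detected genes were. Jhedup, a carboxylesterase related to juvenile hormone esterase, was at 7623, 8872 and 2380.1 TPM, and a5, an antennal protein of the phosphatidylethanolamine-binding family, was at 5803, 6718 and 1909.8 TPM. GstE4, a glutathione S-transferase, had 4640.0, 4778 and 971 TPM, with replicate 3 far below the others. Est-6, a secreted carboxylesterase studied for its action on pheromones, differed little across the libraries at 2219.5, 2337 and 2192 TPM. Ugt35b, a glycosyltransferase, was at 3729, 4090.5 and 2396 TPM.

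The cytochrome P450 family, monooxygenases that modify odorants and foreign compounds, summed to 17573, 17484 and 12848 TPM with 60 of 80 genes detected. Cyp6g1, known for insecticide resistance, was at 2661, 2519 and 2179 TPM but overlaps a gene on the opposite strand. Cyp6a2 had 2759, 2590.0 and 1599 TPM and Cyp6w1 had 2689.6, 2625 and 1359 TPM. Cyp4e2, Cyp6a8 and Cyp6a20 followed, and Cyp6a20, a gene linked to aggression in males, was at 960.1, 1052 and 559 TPM. Glutathione S-transferases summed to 12455, 12158 and 6971 TPM with 30 of 35 detected, of which GstE4 and GstD1 were the highest, GstD1 at 2089.7, 1931 and 1391 TPM. UDP-glycosyltransferases summed to 4803, 5203 and 3218 TPM with 10 of 17 detected, and Ugt35b alone gave most of that sum. The next members, Ugt86Dd and Ugt86Da, were at 346, 395 and 229 TPM and 343, 331 and 262 TPM.

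**Figure D3:**
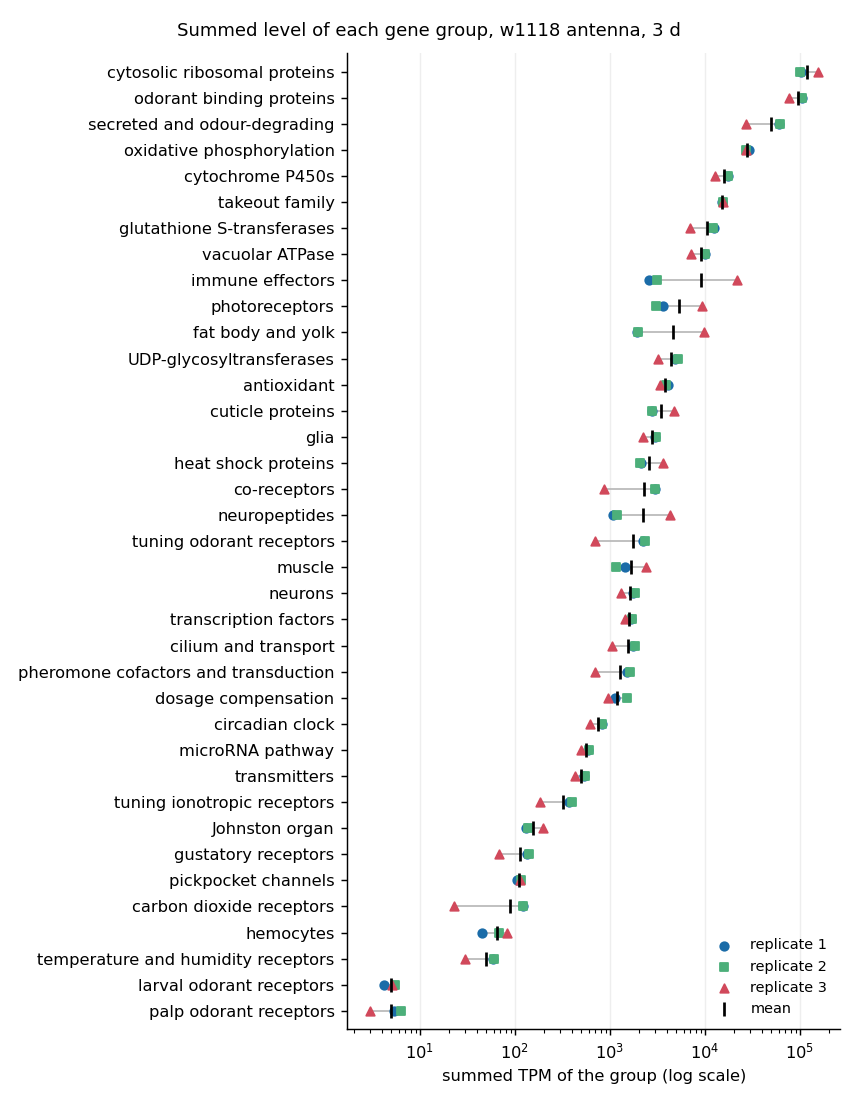
Summed TPM of each gene group in w1118 antennae at 3 d (x axis, log scale), with a symbol for each replicate and a bar for the mean. Ribosomal proteins and odorant binding proteins lead, palp and larval odorant receptors are at the bottom, and replicate 3 lies far to the right for immune effectors, photoreceptor genes and fat body and yolk genes and to the left for the receptor groups.

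Orco, the obligate co-receptor of the odorant receptors on chromosome 3R, 5407183 to 5410469, minus strand, was at 2540.1, 2552 and 678 TPM, so replicates 1 and 2 nearly coincided and replicate 3 was far below them. Ir76b, a co-receptor of ionotropic receptors for amines and other odours on chromosome 3L, 20108484 to 20111534, minus strand, was at 219, 206 and 104 TPM. Ir25a, the co-receptor shared by most ionotropic receptor neurons on chromosome 2L, 4830846 to 4835300, minus strand, was at 157, 158 and 45.9 TPM, and Ir8a, the co-receptor for acid-sensing neurons on chromosome X, 9232726 to 9236585, minus strand, was at 95.7, 98.2 and 28.1 TPM. All 4 were lowest in replicate 3, as 54.0% of all detected genes were. Ir25a over Ir8a was 1.64, 1.60 and 1.63, close to constant over the 3 libraries, whereas Ir76b over Ir25a was 1.39, 1.31 and 2.28.

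The 38 tuning odorant receptors summed to 2223, 2330.4 and 691 TPM, or 87.5%, 91.3% and 102% of Orco in the same library. The 5 highest receptors held 42.4%, 41.2% and 39.6% of that sum and the 10 highest 60.9%, 60.2% and 62.7%. Or92a, a receptor of ab1 neurons that answer to vinegar odours, had the highest mean at 191 ± 114 TPM (SD, n = 3), with 254, 259 and 59.3 TPM in the libraries. Or47b, a trichoid receptor for fly-derived fatty acid esters, was at 191, 194 and 76.1 TPM, and Or59b of ab2 sensilla was at 203, 200.3 and 56.1 TPM. Or47b was the highest receptor in replicate 3 and Or92a in replicates 1 and 2. Or42b, which also serves attraction to vinegar, was at 176, 174 and 37.9 TPM, and Or67d, the receptor for cis-vaccenyl acetate, was at 108, 125 and 25.9 TPM.

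**Figure D4:**
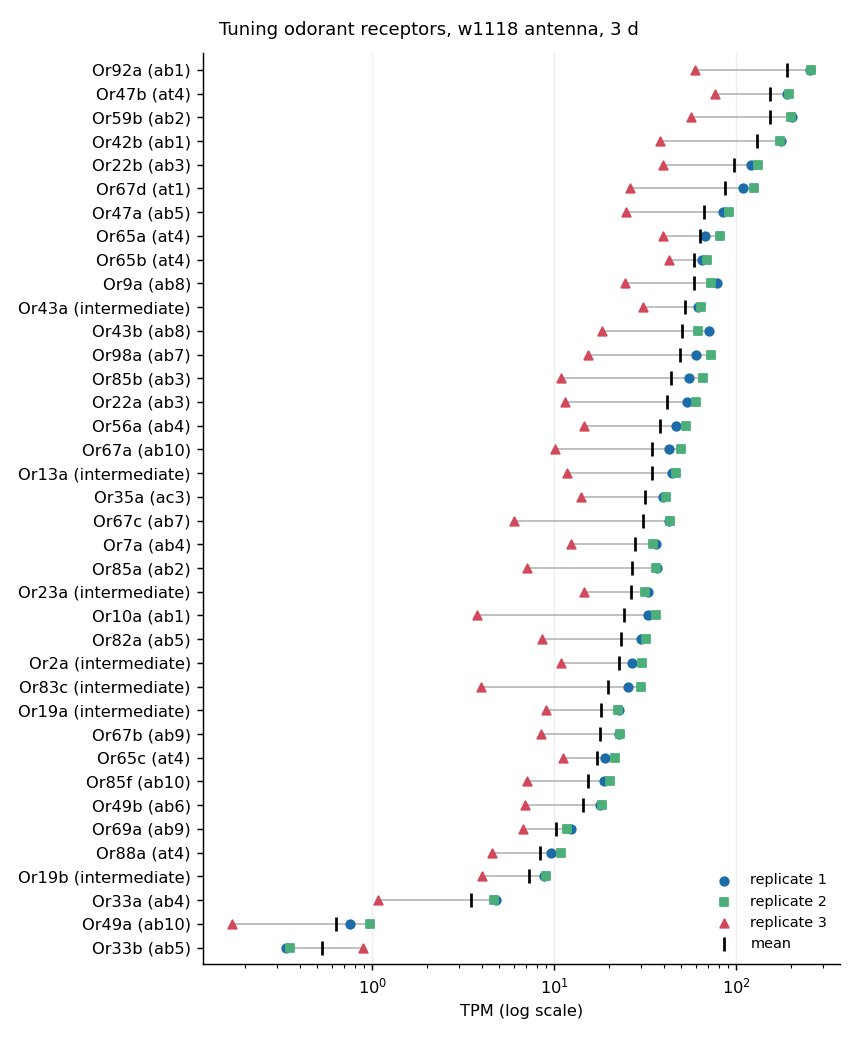
Level of the 38 tuning odorant receptors in w1118 antennae at 3 d (x axis, TPM, log scale), ordered by mean, with a symbol for each replicate, a bar for the mean and the sensillum class in brackets. Replicates 1 and 2 nearly coincide for most receptors and replicate 3 lies to their left for all but Or33b.

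Of the 37 pairs of neighbours in the order by mean TPM, 13 kept the same order in all 3 libraries. The ranges over libraries overlapped in 36 pairs, all but Or33a over Or49a, but replicate 3 was low for nearly every receptor, so this overlap says little about the order. Spearman's rho of the 38 levels was 0.993 between replicates 1 and 2, 0.900 between replicates 1 and 3 and 0.883 between replicates 2 and 3. The 10 highest receptors by mean were the same 10 when any 1 library was left out. Some receptors changed rank widely: Or67c was at ranks 19, 19 and 31 of the 38 in the 3 libraries, and Or65b at ranks 11, 11 and 4. Levels in replicate 3 were a median 0.303 times the mean of the other libraries.

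Or22a and Or22b, neighbours 540 bases apart that share ab3 neurons tuned to fruit esters, were at 53.4, 60.2 and 11.5 TPM for Or22a and 120.0, 132 and 39.7 TPM for Or22b. Or22b over Or22a was 2.25, 2.19 and 3.47, but the genes are near copies and their counts are uncertain. The same caution holds for Or65a, Or65b and Or65c, at 67.5, 81.6 and 39.5 TPM, 64.5, 68.7 and 42.8 TPM and 19.0, 21.6 and 11.1 TPM, and for Or19a and Or19b, at 22.8, 22.3 and 8.97 TPM and 8.82, 9.004 and 4.01 TPM. Or56a, the receptor for the mould odour geosmin, was at 46.9, 53.1 and 14.5 TPM. Or35a, the odorant receptor found in ac3 coeloconic sensilla, was at 39.8, 41.0 and 14.1 TPM. Or47a, Or43b, Or67b and Or88a overlap a gene on the opposite strand, and Or88a, another trichoid receptor for fly odours, had 9.58, 10.8 and 4.54 TPM.

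The other receptors of basiconic sensilla spanned a wide range of levels. Or47a and Or82a of ab5 were at 84.5, 91.1 and 24.9 TPM and 29.9, 31.7 and 8.58 TPM, and Or9a and Or43b of ab8 at 78.2, 72.6 and 24.4 TPM and 71.1, 61.8 and 18.2 TPM. Or98a and Or67c of ab7 were at 59.8, 72.6 and 15.4 TPM and 42.8, 43.4 and 6.01 TPM, so that Or67c had one of the wider gaps between replicate 3 and the rest. Or85b, the partner of Or22a in ab3, was at 55.3, 65.9 and 10.9 TPM, and Or85a of ab2 at 36.9, 36.2 and 7.05 TPM. Within ab5, ab7 and ab8 the receptor named first here was the higher one in all 3 libraries.

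Or67a and Or85f of ab10 were at 42.9, 49.95 and 10.1 TPM and 18.8, 20.2 and 7.10 TPM, and Or7a of ab4 at 36.2, 34.7 and 12.3 TPM. Or67b and Or69a of ab9 were at 22.6, 22.8 and 8.41 TPM and 12.3, 11.8 and 6.77 TPM, and Or49b of ab6 at 17.7, 18.3 and 6.91 TPM. Replicate 3 was the lowest library for each of them, as for all receptors but Or33b. In the intermediate class Or43a led at 61.6, 63.8 and 30.9 TPM, followed by Or13a at 44.3, 46.6 and 11.8 TPM and Or23a at 32.8, 31.5 and 14.5 TPM. Or2a was at 26.8, 30.2 and 10.9 TPM. Or83c, which detects the citrus odour farnesol, was at 25.4, 30.1 and 3.95 TPM, below the other single-copy members of its class in replicate 3.

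The lowest receptors were Or33a, Or49a and Or33b. Or33a, found in the same neurons as Or56a, had 4.78, 4.65 and 1.07 TPM, from 256 counts over the 3 libraries. Or49a, which detects the scent of parasitoid wasps, had 0.754, 0.973 and 0.17 TPM from 48 counts, with an exact Poisson interval at 95% of 35.4 to 63.6 counts. Or33b had 0.338, 0.354 and 0.89 TPM from 37 counts (26.1 to 51.0), and it was the 1 tuning receptor whose highest library was replicate 3. None of these 3 was detected by the rule of 1 CPM in every library. Palp receptors were in the same range, since Or42a had 136 counts and Or71a had 217 over the 3 libraries.

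Sorted by sensillum, receptors of basiconic sensilla held 67.5%, 66.7% and 56.7% of the summed tuning receptor TPM, those of trichoid sensilla 20.7%, 21.5% and 28.9% and those of intermediate sensilla 10.02%, 10.02% and 12.3%. The ab1 class held 20.8%, 20.1% and 14.6% and the at4 class 15.8%, 16.2% and 25.2%, so that at4 led in replicate 3 and ab1 in replicates 1 and 2. In replicate 3 the 5 members of the at4 class stood at 0.395 to 0.643 times the mean of the other libraries. Or67d of at1, the other trichoid class, stood at 0.222, and its share was 4.87%, 5.37% and 3.75%. The 2 members of the basiconic class ab9 stood at 0.371 and 0.563. Or10a, an ab1 receptor for methyl salicylate, had 32.7, 36.1 and 3.76 TPM and the lowest such ratio of the table of receptors, 0.110. Gr10a, a gustatory receptor family member made in the same neurons as Or10a, had 42.3, 46.8 and 15.8 TPM.

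**Figure D5:**
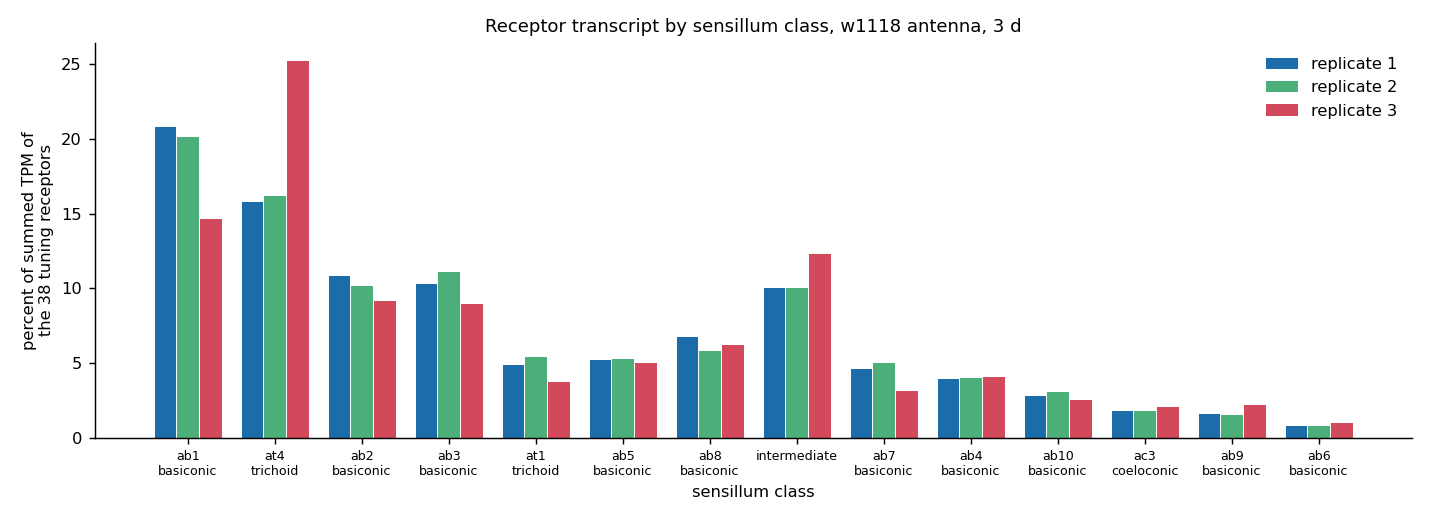
Share of summed tuning odorant receptor TPM by sensillum class (x axis) in each replicate of w1118 antennae at 3 d (y axis, percent, starting at 0). The ab1 class is highest in replicates 1 and 2 and the at4 class in replicate 3, where the intermediate class also has its highest share.

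Snmp1, a CD36-like membrane protein needed for pheromone detection in trichoid neurons, was at 1314, 1409 and 611 TPM. Relative to Orco it stood at 0.517, 0.552 and 0.901 in the 3 libraries. CG14741, the lipid flippase gene also known as ATP8B that olfactory neurons need for odorant receptor function, was at 180.3, 199.9 and 62.9 TPM, and Snmp2, the support cell relative of Snmp1, at 23.3, 32.2 and 19.4 TPM. All 3 genes were lowest in replicate 3, as 54.0% of all detected genes were.

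All 10 tuning ionotropic receptors of the antenna were detected, and they summed to 371, 397 and 181 TPM. Ir75a, a receptor for acetic acid, was at 89.4, 93.4 and 41.1 TPM, and Ir31a, a receptor of ac1 sensilla, at 70.3, 78.7 and 68.0 TPM. Ir64a, which senses acids in the sacculus, was at 60.9, 64.5 and 20.3 TPM. All 10 members were lowest in replicate 3, as 54.0% of all detected genes were, but Ir31a stayed within a narrow range. Ir84a, a receptor for phenylacetaldehyde from food, was at 29.6, 27.8 and 11.3 TPM, and Ir92a, which answers to ammonia and amines, at 21.7, 24.2 and 6.15 TPM. Ir75b and Ir75c, relatives of Ir75a in the same gene cluster, were at 35.1, 44.7 and 9.87 TPM and 21.5, 20.9 and 4.47 TPM, and Ir75d, which overlaps another gene, at 16.5, 16.1 and 4.98 TPM. Ir76a, an amine receptor that also overlaps another gene, was at 22.4, 22.8 and 13.6 TPM. Ir41a was the lowest at 4.05, 3.76 and 1.60 TPM. Beyond these, 4 of 43 other ionotropic receptor genes were detected, most of them taste receptors in other organs, with Ir62a the highest at 8.90, 10.9 and 9.11 TPM.

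The carbon dioxide receptor pair was detected in all libraries, with Gr63a at 81.2, 83.4 and 14.9 TPM and Gr21a at 40.0, 37.8 and 7.68 TPM. Gr63a over Gr21a was 2.03, 2.21 and 1.94, while the level of both was far lower in replicate 3 than in replicates 1 and 2. Of the other 57 gustatory receptor genes 9 were detected, led by Gr64f, a sugar receptor gene that overlaps another gene, at 47.2, 48.6 and 25.1 TPM. Among receptors for temperature and humidity, Ir40a of the sacculus was at 41.4, 40.0 and 19.1 TPM. Ir21a, which serves cooling cells of the arista, and its co-receptor Ir93a were near 5 TPM, at 5.61, 6.57 and 3.80 TPM and 5.80, 6.87 and 3.05 TPM. Ir68a, a receptor for moist air, was not detected at 1 CPM in every library and had 0.788, 0.763 and 1.27 TPM. Among the pickpocket sodium channels 10 of 29 were detected, with ppk5 the highest at 37.5, 40.6 and 17.9 TPM; ppk25, which takes part in responses of olfactory neurons to fly odours, was at 5.62, 8.10 and 4.24 TPM.

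Genes of cilia and ciliary transport were detected in 27 of 28 cases and summed to 1766, 1815 and 1048 TPM. Replicate 3 was the lowest library for 23 of the 27, and for 54.0% of all detected genes. The other 4 of the 27, iav, nan, tilB and fd3F, were highest in replicate 3. Of these, iav, nan and tilB are also in the list of markers of Johnston's organ, the hearing organ in the second antennal segment. In that list dila and nompA were lowest in replicate 3. The kinesin-2 motor genes Klp68D and Klp64D were at 121, 122 and 63.5 TPM and 112, 114 and 64.0 TPM. Oseg2, a component of intraflagellar transport, was at 56.7, 57.8 and 20.0 TPM, and BBS8, part of the BBSome that sorts membrane cargo, at 52.0, 50.9 and 26.9 TPM. Rfx, the transcription factor that drives cilium genes, was at 41.9, 45.6 and 30.5 TPM. All 12 neuronal genes were detected, and they summed to 1766, 1835 and 1308 TPM. The synaptic vesicle protein gene nSyb was at 366, 389 and 242 TPM, the sodium channel gene para at 189, 202 and 137 TPM, and elav, a marker of neurons that overlaps another gene, at 32.7, 37.0 and 21.2 TPM.

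Olfactory neurons of the fly are cholinergic. VAChT and Cha, the transporter and the synthase of acetylcholine, were at 93.5, 105 and 72.2 TPM and 86.4, 97.3 and 66.5 TPM. VGlut, Gad1 and VGAT, markers of glutamate and GABA neurons, were each under 4 TPM in every library except Gad1 in replicate 3, with 3.14, 1.76 and 12.9 TPM. SerT, the serotonin transporter, was the highest gene of the list at 218, 207 and 98.2 TPM. Among peptide genes, sNPF, a peptide that olfactory neurons release, was at 168, 202 and 70.0 TPM and its receptor gene sNPF-R at 13.7, 13.1 and 19.8 TPM. Nplp2, named as a neuropeptide-like precursor, had the highest level of the list at 691, 740.2 and 3715 TPM, and replicate 3 lay far above the others; this gene made up most of the sum of the list.

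Transcription factors that set olfactory identity were detected in 21 of 23 cases. Dll and ss, which specify the antenna, were at 248, 253 and 152 TPM and 209, 215 and 142 TPM, and hth, which overlaps another gene, at 198, 205 and 208 TPM. The POU factors acj6, pdm3 and vvl, which select receptors, were at 38.7, 41.7 and 18.4 TPM, 39.9, 41.0 and 31.6 TPM and 24.6, 28.3 and 46.6 TPM. The clock genes were all 8 detected. The blue-light receptor gene cry was the highest of them at 406, 392 and 195 TPM but overlaps another gene, tim was at 59.4, 66.4 and 62.4 TPM and per at 17.8, 19.4 and 12.5 TPM; the time of day of dissection is not given in the sources used here, so these levels belong to an unstated phase.

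Markers of other cells were present at varied levels. The glial gene repo, a transcription factor of nearly all lateral glia, was steady at 33.0, 33.8 and 35.7 TPM, and moody, of the blood-brain barrier, at 56.7, 55.5 and 50.6 TPM. Gs2, a glutamine synthetase, was at 2366, 2375 and 1482 TPM. The astrocyte marker alrm, the midline marker wrapper and the early glial factor gcm were not detected, with gcm at 0.0591, 0 and 0 TPM. Hemocyte markers were low, led by Hml at 16.1, 22.2 and 28.6 TPM, with 8 of 9 detected. All 20 muscle genes were detected, summing to 1453, 1161 and 2397 TPM. Of these genes 19 were highest in replicate 3, as 35.8% of all detected genes were. The myosin heavy chain gene Mhc was at 73.2, 71.2 and 141 TPM and the light chain gene Mlc2 at 284, 177 and 365 TPM. Markers of Johnston's organ, the hearing organ in the second antennal segment, summed to 129.8, 137 and 197 TPM. Of the 8 detected, 6 were highest and 2 lowest in replicate 3, against 35.8% and 54.0% of all detected genes. The channel genes nompC and nan were highest there, at 7.15, 8.65 and 12.1 TPM and 11.3, 11.7 and 22.8 TPM, while dila and nompA were lowest there, at 15.9, 16.4 and 8.56 TPM and 8.83, 10.01 and 4.84 TPM.

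Photoreceptor genes were detected in all 14 cases and summed to 3608, 3043 and 9408 TPM. Replicate 3 was the highest library for 13 of the 14, and for 35.8% of all detected genes. The main rhodopsin gene ninaE was at 1816, 1410.2 and 5144 TPM, and its mean was among the 30 highest of the table. By library its TPM rank was 51, 87 and 12, so replicate 3 set that place. The arrestin genes Arr2 and Arr1 were at 799, 732 and 2179.9 TPM and 341, 298 and 779.9 TPM. The ultraviolet rhodopsin genes Rh3 and Rh4, made in different photoreceptors, were at 30.5, 20.6 and 88.4 TPM and 100.2, 85.5 and 212 TPM. Orco over ninaE was 1.398, 1.81 and 0.132, so ninaE exceeded Orco in replicate 3. The phospholipase C gene norpA, which is also used outside the eye, was even at 108, 112 and 104 TPM. No photoreceptor marker was at 0 counts, and the eye-specific lens protein gene retinin was at 29.4, 21.0 and 386 TPM.

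Fat body and yolk genes summed to 1904, 1951 and 9885 TPM, of which takeout (to), a gene of the head fat body that is also known from the antenna, gave 1751, 1839 and 3987 TPM and so most of the sum in replicates 1 and 2. The yolk protein genes Yp1, Yp2 and Yp3, made in the fat body and ovary of females, were at 26.2, 5.91 and 1727 TPM, 19.2, 7.51 and 1554 TPM and 28.1, 4.83 and 2234 TPM. For each of the 3 genes replicate 3 was far above the others, and replicate 1 also exceeded replicate 2. The male-specific dosage compensation RNAs were found in all libraries, with roX1 at 979.8, 1354 and 833 TPM and roX2 at 38.5, 41.3 and 39.9 TPM; roX1 overlaps another gene. Larval serum protein gene Lsp2 was at 1.399, 0.244 and 59.5 TPM, and the fat body genes Fbp1 and Fbp2 were below 1 TPM. No gene of the 50 on chromosome Y was detected. The part that tissue from other parts of the head or body, or the sexes of the flies, had in the lower receptor levels of replicate 3 was not tested.

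Immune effector genes had an uneven sum, 2591, 3157 and 21474 TPM, and all 16 detected members were highest in replicate 3, as 3283 of the 9176 detected genes were. Drs, the antifungal peptide drosomycin, was at 11.6, 35.4 and 2664 TPM, and Mtk, metchnikowin, at 17.1, 27.8 and 1110.2 TPM. IM1 and IM2 encode short peptides of the Bomanin family that flies make after infection. They were at 171, 268 and 2829 TPM and 296, 426 and 2956 TPM. Bomanin genes are similar in sequence, so fragments that match several of them may be left out of the counts. AttC and DptB, antibacterial peptides whose genes overlap others, were at 3.99, 6.66 and 199 TPM and 2.38, 8.19 and 210.0 TPM. Drsl5, a relative of Drs, did not share this pattern, as its even levels above show. TotA, a gene named for its stress response, was at 173, 158 and 630.2 TPM.

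Of 16 heat shock genes 10 were detected, of which 7 were highest and 3 lowest in replicate 3. Of all detected genes, 35.8% were highest and 54.0% lowest there. The genes named here differed widely in their spread over the libraries. The constitutive chaperone genes Hsc70-4, Hsc70-3, Hsp60 and Hsc70-5 were even, with Hsc70-4 the highest at 1092, 1025 and 1207 TPM. The inducible genes Hsp26, Hsp68 and Hsp27 were at 7.45, 8.28 and 427 TPM, 3.32, 5.04 and 242 TPM and 6.71, 7.997 and 106 TPM, so replicate 3 was far above the others. Hsp83, the fly Hsp90, was at 87.5, 84.1 and 551 TPM, and Hsp68 and Hsp83 overlap other genes. Hsp70Aa and Hsp70Ab had 0 counts, but these genes are near-identical copies, which makes their counts uncertain.

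Among the 3596 genes with a mean of 50 CPM or more, the highest library was at least 1.5 times the lowest in CPM for 788 (21.9%), at least 2 times for 304 (8.45%), at least 3 times for 112 (3.11%) and at least 5 times for 37 (1.03%). All 37 were highest in replicate 3. The 15 widest ratios belonged to Yp3, Yp1, Drs, CG34324, Yp2, Muc68D, CG34220, CG6639, Hsp68, Mtk, Hsp26, IM23, retinin, IM1 and CG15065. Of these, the uncharacterised CG34324 and CG34220 had 36.9, 1.72 and 413 CPM and 44.4, 3.28 and 296 CPM, so replicate 2 was well below replicate 1 as well, and the mucin gene Muc68D had 12.9, 1.02 and 139.9 CPM in the same order.

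Genes that every cell uses were abundant. Cytosolic ribosomal protein genes summed to 103144, 99754 and 154925 TPM, 11.9% ± 3.09 (SD, n = 3) of TPM, with 84 of 92 detected. Replicate 3 was the highest library for 82 of those 84, and for 35.8% of all detected genes. RpL41, with a gene model of 320 bases, led at 3001, 3300.2 and 5966 TPM, and RpL27A was at 2209, 2097 and 3246 TPM. Oxidative phosphorylation genes summed to 28856, 27244 and 27155 TPM, an even sum next to that of the ribosomal genes, with 59 of 77 detected. ATPsyn-beta, the catalytic subunit of ATP synthase whose gene overlaps another, was at 1881, 1804 and 1406 TPM, and the cytochrome oxidase subunit genes CoVa and CoIV were at 1119.8, 992 and 1106 TPM and 1048, 995 and 932 TPM. Among antioxidant genes, the superoxide dismutase gene Sod was at 1710.5, 1642 and 1437 TPM and the catalase gene Cat at 680.0, 631 and 332 TPM. The microRNA pathway genes were all 10 detected, AGO1 at 131, 139.8 and 115 TPM and Dcr-1, which cuts microRNA precursors, at 5.69, 5.71 and 5.74 TPM.

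Most cuticle protein genes were not detected, with 20 of 96 detected and 20 at 0 counts. Cpr65Au and Cpr67B made up most of their sum, at 1557, 1621 and 2495 TPM and 882, 821 and 1571 TPM, and both were highest in replicate 3.

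Non-coding RNAs reached high levels. Of 1668 long non-coding RNA genes 112 were detected, and of 13764 protein-coding genes 8895 were. All long non-coding RNA genes, detected or not, held 1.93% of TPM and all protein-coding genes 96.4%. CR34335, a long non-coding RNA with a gene model of 249 bases, was at 6488, 8617 and 19869 TPM and the eighth highest gene by mean TPM, lowest in replicate 1 and highest in replicate 3. By CPM, CR42862 led with 3408, 3931 and 3630.3 CPM, followed by roX1 with 2821, 3832 and 2570.5 CPM. The neuronal RNA noe was even at 1808, 1678 and 1582 TPM. CR41602 and CR41609, annotated as ribosomal RNA pseudogenes, had 2612, 1481 and 865 CPM and 338, 194 and 111 CPM, highest in replicate 1 and lowest in replicate 3. Hsromega, the heat shock RNA, had 181, 187 and 326 CPM.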

How the data were processed

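The authors deposited 1 table of raw counts per gene. Per the file headers, counts were made with featureCounts 1.4.5-p1 on fragments (exons grouped by gene, dm6 gene models, strand setting 0, no option for multi-mapping or multi-overlapping reads set), so the counts of the 4161 genes that share bases with a gene on the other strand are uncertain, since fragments there may be left out. Per the submitters' processing notes, FastQC and STAR 2.4.2a were run and the build was dm6. The 3 w1118 columns at 3 d were used; 9 other per-sample columns were not, 8 of other samples and 1 that matches none of the 11 samples. The table had no mitochondrial genes (0).

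CPM (counts scaled to the library total) and TPM (counts over gene length, scaled to a fixed total) were computed from the deposited counts and lengths. Symbols matched the RefSeq table for 16512 of 16727 genes. Python 3.11.15, pandas 2.3.3 and numpy 2.4.6 were used; R 4.3.3 with edgeR 4.0.16 gave alternative scaling factors. The TPM step was tested on simulated data. No statistical test was made, since the libraries form 1 group. Named genes were the 30 highest by TPM and by CPM, up to 10 per list, undetected and lowest receptors and binding proteins, the 10 highest non-coding RNAs and the 15 with the widest spread among genes of at least 50 CPM; others (the remaining tuning odorant receptors, Obp84a, Obp99c, Obp99b, Obp57a, Obp57b, BBS8, Rfx, elav, Rh3, AttC, DptB, TotA, Hsp70Aa and Hsp70Ab) were chosen after their values were seen. Members and lists were chosen with earlier results of these data known. Depth limits precision: intervals and limits for 0 counts cover counting error only, and fragments are not independent molecules. A planned look at promoter motifs was not run.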

Additional observations from a re-analysis of the deposited data

How the results depend on the processing

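Of 329 recomputed values under the alternatives, 279 stayed within a set limit and 50 moved further. The limit was the SD between libraries for shares and 1.5 times for counts. For the 38 values under TMM scaling it was a fixed log2 difference. Leaving out 1 of 3 libraries cannot move a mean share by as much as the SD between libraries. The 38 list shares recomputed without each library in turn were therefore bound to stay within the limit. For those shares, staying within it is no sign of stability. Counting fragments without length moved the largest groups: under CPM the 10 highest genes held 7.70% of counts against 16.3% of TPM, odorant binding proteins 4.31% against 9.57%, secreted and odour-degrading genes 2.76% against 4.98% and ribosomal proteins 5.76% against 11.9%, and 18 of the 30 highest genes were shared. Immune effectors held 0.217% under CPM and 1.65% with lengths shortened by 200 bases, against 0.907% of TPM, within an SD that replicate 3 makes larger than the mean. Leaving out 1 library in turn gave 9242 to 9306 detected genes, 15.6% to 17.6% for the 10 highest genes, 0.146% to 0.228% for tuning odorant receptors, 0.193% to 0.301% for co-receptors, 9.07% to 10.5% for odorant binding proteins, 4.39% to 6.10% for secreted and odour-degrading genes, 0.287% to 1.23% for immune effectors and 10.1% to 12.9% for ribosomal proteins. It left 27 to 28 of the 30 highest genes and 10 of the 10 highest receptors in place. Replicate 3 is the library that sets the low value for immune effectors and the high values for receptors when it is left out. TMM scaling was added after seeing the data. It put the median of all detected genes in replicate 3 at -0.08 on the log2 scale. That median was 0.01 for CPM and -0.10 for TPM. Under TMM the tuning odorant receptors were at -1.63 and the immune effectors at 2.99. TMM turned no list's sign. However, gene length cancels in a ratio between libraries, so TMM and TPM shifts differ by little more than 1 scaling factor per library. The 38 values under TMM could therefore hardly leave their limit, and they do not test the shifts. Unscaled CPM, not among the 329 values, turned the sign for glia, neuropeptides, the circadian clock, glutathione S-transferases and oxidative phosphorylation, whose medians lay within 0.1 of 0 under all 3 scales. No paired analysis was possible because no comparison between groups was made.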

Other observations

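Juvenile hormone binding proteins of the takeout family, secreted carriers of small hydrophobic molecules, were abundant and had an even sum. The family was added after seeing the data. It summed to 14936, 15374 and 15564 TPM, 1.53% ± 0.0322 (SD, n = 3) of TPM, with 11 of 15 genes detected. CG14661 (Jhbp3) was at 5960.1, 6169 and 3013 TPM, and CG5945 (Jhbp13) and CG5867 (Jhbp14) were at 2981, 3048 and 4230.1 TPM and 2782, 2872 and 2521 TPM. The sum includes takeout (to), which is also counted among the fat body and yolk genes above. That gene was highest in replicate 3, whereas CG14661 was lowest there. Members of the family thus went different ways across libraries, and the even sum does not mean even members. Of the 11 detected, 5 (45.5%) were lowest in replicate 3 and 6 (54.5%) highest, against 54.0% and 35.8% of all detected genes.

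The vacuolar ATPase, the proton pump that support cells use to energise the sensillum fluid, was also added after seeing the data. Its genes summed to 10125, 10009.8 and 7183 TPM with 20 of 33 detected. Replicate 3 was the lowest library for 17 of the 20 detected, and for 54.0% of all detected genes. The membrane subunit gene Vha16-1 was the highest at 1761, 1802 and 1292 TPM, followed by Vha13 at 1167, 1132 and 897 TPM and the catalytic subunit gene Vha68-2 at 919, 857 and 448 TPM.

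On the chromosomes other than Y, detection ranged from 48.4% of the genes on 2L to 82.7% of the 104 genes on chromosome 4, with 60.7% on X.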
